A study of Mus musculus with 6 samples.

Results

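The genes of major histocompatibility complex (MHC) class II presentation were followed through droplet single cell RNA sequencing data from kidneys and MMTV-PyMT mammary tumors of mice. The group holds 7 of the 31053 genes in each deposited matrix, chosen by symbol: H2-Aa, H2-Ab1, H2-Eb1, Cd74, H2-DMa, H2-DMb1 and Ciita. All 7 symbols were found in both tissues. Kidneys were taken from male mice of the inbred C57BL/6 strain at an age of 12 weeks. Tumors came from 10-week-old female MMTV-PyMT mice, in which a mouse mammary tumor virus promoter drives the polyoma middle T oncogene, mainly in mammary epithelium. The background strain of these mice was not given in the sources used here. The conditions of a tissue, control and platform alike, were run on tissue of the same source mouse as a single replicate. Each tissue was minced and digested with type I collagenase, either as a 60 min control or in a microfluidic platform that circulates enzyme through the mince and then passes the suspension through filters. Platform cells were collected in succession from the same loaded tissue, as a 15 min interval and then a 60 min interval. The 60 min interval thus holds cells released after the 15 min collection. Every suspension was treated with DNase and red blood cell lysis buffer and sorted for live cells before loading. There was 1 library for each of the 3 conditions in each of the 2 tissues, 6 in all, so differences between conditions could not be checked against replicates and were not tested. All intervals below are 95% intervals that cover counting error only.

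MHC class II molecules display peptides from engulfed proteins to CD4+ T cells. They are best known from dendritic cells, macrophages and B cells, the professional antigen-presenting cells. H2-Aa and H2-Ab1 encode the alpha and beta chains of I-A, the mouse counterpart of human HLA-DQ, and H2-Eb1 encodes the beta chain of I-E, the counterpart of HLA-DR. Cd74 encodes the invariant chain, which fills the binding groove until the molecule reaches an endosome. H2-DMa and H2-DMb1 encode chains of H2-M, which removes the last invariant chain fragment and edits the peptide. Ciita encodes the coactivator that is recruited to class II promoters by factors bound to their conserved X and Y boxes, and its own level is known to set class II transcription in many cells.

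In GRCm38 coordinates, 5 of the 7 genes lie within 197.1 kb of chromosome 17, in the class II region of the mouse MHC. They are H2-DMa (ENSMUSG00000037649, chr17:34119541-34139101, plus strand), H2-DMb1 (ENSMUSG00000079547, chr17:34153072-34160230, plus strand), H2-Ab1 (ENSMUSG00000073421, chr17:34257689-34269419, plus strand), H2-Aa (ENSMUSG00000036594, chr17:34282744-34287823, minus strand) and H2-Eb1 (ENSMUSG00000060586, chr17:34305867-34316674, plus strand). Ciita (ENSMUSG00000022504, chr16:10480059-10528418, plus strand) lies on chromosome 16, and Cd74 (ENSMUSG00000024610) outside both of these regions. Libraries of this kind count the 3′ ends of transcripts. Of the stretches of 50 bases in the last 500 bases of its annotated transcripts, H2-DMb1 shared 27.4% with the neighboring paralog H2-DMb2, so reads of these genes may be split or lost between them. The other 6 genes shared none.

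RefSeq promoter windows (GRCm38.p6, from 250 bases before to 50 bases after the start) were available for H2-Aa, H2-Eb1, H2-DMa and H2-DMb1. Both strands were searched for the Y box letters TGATTGG and for a form of the X box with free choice of base at 3 inner positions, which reads AGCAACTGATG in H2-Eb1. The Y box letters were found in 3 of these 4 genes and in 4 of 4 further class II chain genes (H2-DMb2, H2-Oa, H2-Ob and H2-Eb2), against 7.82% of all 32851 windows. The X box letters were found in 2 of the 4 genes and 2 of the 4 further ones, against 0.968% of all windows. In H2-Eb1 and H2-DMb1 the X box letters ended 20 and 21 bases before the Y box, in H2-Eb2 the distance was also 20 bases, and in H2-Oa it was 85 bases. Neither run of letters was found in the 2 windows of H2-DMa. A match describes letters only and does not show binding. Windows from 110 to 31 bases before the start are printed for H2-Aa and H2-Eb1, whose levels part ways between the tissues below, and for H2-Ob, whose kidney level was highest in B-gated cells, with the matched letters in capitals.
H2-Aa (chr17:34287854-34287933, minus strand): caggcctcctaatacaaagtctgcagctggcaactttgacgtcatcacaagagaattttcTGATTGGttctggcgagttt
H2-Eb1 (chr17:34305757-34305836, plus strand): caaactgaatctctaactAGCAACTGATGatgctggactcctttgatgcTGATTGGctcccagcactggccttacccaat
H2-Ob (chr17:34238795-34238874, plus strand): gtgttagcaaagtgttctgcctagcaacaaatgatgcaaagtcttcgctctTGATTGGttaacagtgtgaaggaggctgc

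The 3 kidney libraries kept 5886 (60 min control), 8390 (15 min) and 9936 (60 min) cells, with 33644880, 61434200 and 52338873 unique molecular identifiers (UMIs), the tags that count captured RNA molecules. The 3 tumor libraries kept 5736, 5802 and 6024 cells with 50661627, 54841077 and 58014175 UMIs. Cells were assigned to classes by marker genes, none of them a class II gene, and classes are named for the gate they passed. Proximal tubule-gated cells made up 45.2, 84.2 and 26.8% of the control, 15 min and 60 min kidney cells, and epithelial-gated cells 59.0, 67.1 and 40.1% of the tumor cells, so the markers of both labeled tissues were present. Between 3.49 and 14.4% of the cells of a library passed no gate. Of the cell barcodes, 309 in kidney (392 kept cells) and 57 in the tumor (86 kept cells) occurred in more than 1 library of the tissue.

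Levels are given as CPM, the UMIs of a gene for each 1000000 UMIs of the same cells. Class II transcripts were concentrated in macrophage- and dendritic-gated cells in both tissues, followed by monocyte- and B-gated cells (the 6 monocyte-gated kidney cells at 15 min apart, which held 33 UMIs). No other gated class held more than 2351 CPM. Summed over the 7 genes, kidney macrophage-gated cells held 90541, 100681 and 79849 CPM in the control, 15 min and 60 min libraries. Kidney dendritic-gated cells held 67884, 58298 and 53967 CPM and B-gated cells 24883, 28896 and 25262. Proximal tubule-gated cells, which are not expected to make class II, held 146, 103 and 783 CPM. In the tumor, macrophage-gated cells held 48954, 45718 and 42274 CPM, and dendritic-gated cells 50699, 42760 and 51284. The dendritic-gated classes were small (75, 12 and 194 kidney cells and 41, 20 and 96 tumor cells) and less clearly set apart than the others. Their own markers stood at a median of 14.1, 13.6 and 11.9 UMIs per 10000 in kidney, against 12.2, 17.8 and 13.3 for the markers of other classes, and at 13.7, 14.1 and 11.2 against 6.30, 6.07 and 6.63 in the tumor. In unsupervised clusters, 239 of 281 dendritic-gated kidney cells and 148 of 157 tumor cells lay in clusters named monocyte by their markers. The tumor held too few B-gated cells (5, 3 and 4) to be described further. Epithelial-gated tumor cells held 273, 162 and 395 CPM.

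**Figure D1:**
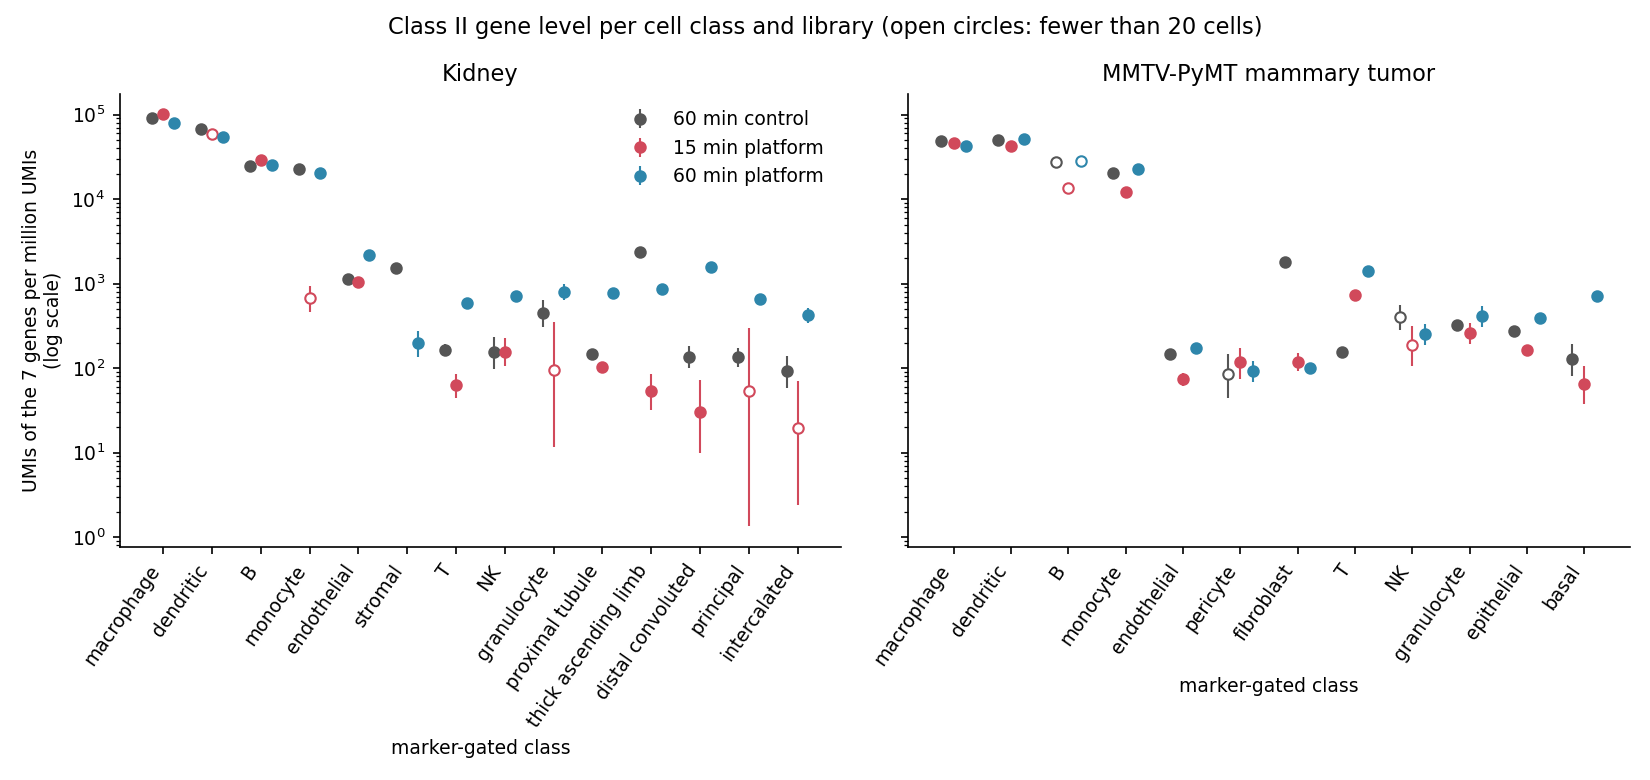
UMIs of the 7 genes CPM UMIs (log scale) in each marker-gated class and library of kidney (left) and tumor (right). Bars are 95% counting intervals, and open circles mark classes of fewer than 20 cells. Macrophage-, dendritic- and B-gated cells lie above 10000 CPM, while endothelial- and proximal tubule-gated kidney cells lie at 103 to 2192.

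The values of minor classes could rest on a single cell. Thick ascending limb-gated cells of the kidney control held 948 class II UMIs, 93.7% of them in 1 of 115 cells, and 1 of 20 stromal-gated cells held 91.1% of that class's UMIs. In the tumor, 1 cell carried 81.5% of the class II UMIs of T-gated cells at 15 min, 60.2% of those of fibroblast-gated cells in the control and 88.8% of those of basal-gated cells at 60 min. No level of these classes is read here.

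Macrophage-gated cells were the main source of class II RNA in every library. They held 77.3, 56.5 and 67.9% of the class II UMIs of the control, 15 min and 60 min kidney libraries, and 83.0, 90.9 and 83.8% in the tumor. B-gated cells held 4.38, 21.1 and 5.55% in kidney, so their share was highest at 15 min, where macrophage-gated cells were fewest (120 of 8390 cells). Dendritic-gated cells held 8.65, 5.73 and 10.8% in kidney and 4.62, 2.28 and 7.87% in the tumor. Cells that passed no gate held 7.86, 10.2 and 11% and 8.84, 3.99 and 4.75%. The source of Ciita differed from that of the chains. Macrophage-gated cells held 70.4, 38.4 and 59.6% of the kidney Ciita UMIs and B-gated cells 9.02, 33.2 and 9.13%.

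**Figure D2:**
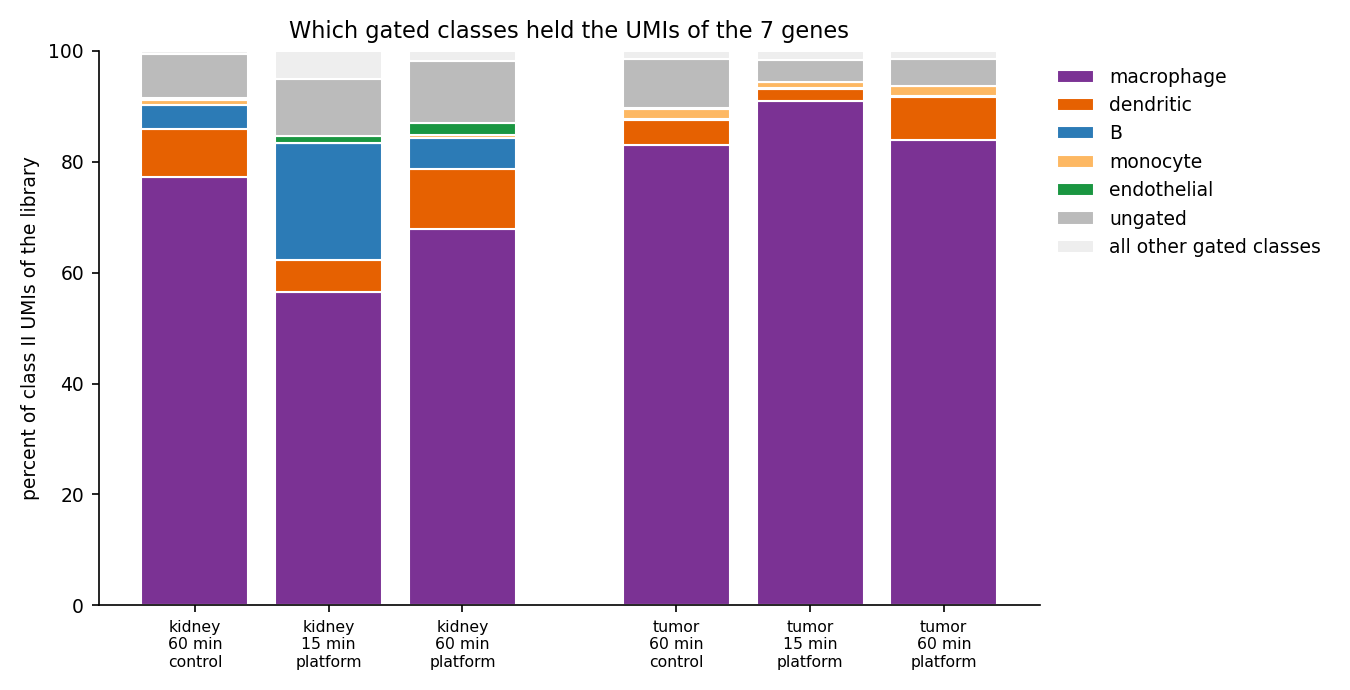
Share (percent, linear axis) of the UMIs of the 7 genes held by each gated class in the 6 libraries. Macrophage-gated cells hold the largest part of every bar, from 56.5% at 15 min in kidney to 90.9% at 15 min in the tumor, and B-gated cells hold 21.1% at 15 min in kidney.

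The question of how processing changed class II content was addressed first over whole libraries. In kidney the 7 genes took 18623 CPM in the 60 min control, 1849 in the 15 min interval and 18644 in the 60 min interval, so the 15 min interval stood at 0.0993 of the control (0.0987 to 0.0999). In the 15 min kidney library all 7 genes were at least 2-fold lower than in the control, as were 25.5% of all 13316 genes with at least 50 UMIs in the pair of libraries, and 2.13% of all genes were 2-fold higher. The ratios ran from 0.0805 for H2-Eb1 to 0.196 for Ciita, against a median of 0.773 over all genes. At 60 min none of the 7 was 2-fold higher or lower, against 8.78% of all genes higher and 0.786% lower. In the tumor the sum was 12444, 8313 and 14638 CPM, ratios of 0.668 at 15 min and 1.18 at 60 min. H2-Eb1 was 2-fold lower at 15 min (49.5 against 20.8 CPM, ratio 0.419, 0.391 to 0.45), as were 3.17% of all genes. Ciita was 2-fold higher at 15 min (10.9 against 24.1 CPM, ratio 2.20, 1.99 to 2.43), as were 2.45% of all genes. At 60 min none passed 2-fold in the tumor, against 8.02% of all genes higher and 1.95% lower.

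In a whole library, fewer cells of a type and less RNA per cell cannot be told apart, so each class was weighed. Macrophage-gated cells made up 13.4, 1.43 and 13.8% of kept kidney cells and 15.8, 16.1 and 23.6% of kept tumor cells. When each class kept its control level and only the class shares of the UMIs took their 15 min kidney values, the library ratio was 0.103. When the shares stayed at control and the levels took their 15 min values, it was 1.04. For kidney at 60 min these values were 1.08 and 0.933, for the tumor at 15 min 0.742 and 0.892, and for the tumor at 60 min 1.35 and 0.878.

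Within kidney macrophage-gated cells the chain genes differed little between conditions. H2-Aa was at 13846 CPM in the control and at 15399 and 11645 in the 15 and 60 min intervals, and H2-Ab1 at 16123, 17462 and 14987. H2-Eb1 was at 17124, 17066 and 14868, and Cd74, the invariant chain gene on chromosome 18, at 41417, 48465 and 36547. At 15 min the ratio to the control was 1.11 (1.09 to 1.14) for H2-Aa, 1.08 (1.06 to 1.10) for H2-Ab1, 0.997 (0.977 to 1.02) for H2-Eb1 and 1.17 (1.16 to 1.18) for Cd74. At 60 min the same genes stood at 0.841, 0.930, 0.868 and 0.882 of the control. Of the peptide-loading genes, H2-DMa stood at 876, 976 and 734 CPM and H2-DMb1 at 1013, 1081 and 890. None of the 7 genes reached 2-fold at 15 min, where 3.1% of 6961 genes were higher and 6.00% lower, or at 60 min, where 2.35% were higher and 0.375% lower. The 15 min values rest on 120 cells with a median of 5332 UMIs, against 786 cells with 6864 in the control and 1368 with 6063 at 60 min. Summed macrophage markers stood at a median of 144, 179 and 121 UMIs per 10000 in these cells and the markers of the other classes at 9.83, 12.0 and 11.3, and the part of either in these ratios was not tested.

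Tumor macrophage-gated cells held H2-Aa, H2-Ab1 and Cd74 slightly below control at both intervals, while H2-Eb1 stood lower still and is given further below. H2-Aa was at 7071, 6286 and 6328 CPM in the control, 15 min and 60 min libraries, H2-Ab1 at 10597, 9492 and 8514, and Cd74 at 29941, 28595 and 26279.8. The ratios at 15 min were 0.889 (0.879 to 0.899), 0.896 (0.888 to 0.904) and 0.955 (0.95 to 0.960), and at 60 min 0.895, 0.803 and 0.878. H2-DMa was at 503, 553 and 490 CPM (1.10 and 0.975 of control) and H2-DMb1 at 615, 560 and 495 (0.911 and 0.805). Over all 9777 genes tested at 15 min the median ratio in these cells was 1.18, and over the 7 members 0.911.

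Ciita, the coactivator of the other 6 genes, differed from them in these cells. In tumor macrophage-gated cells it was at 36.2 CPM in the control (387 UMIs), 122 at 15 min (1106 UMIs) and 50.5 at 60 min (850 UMIs). The 15 min interval was 3.37-fold above the control (3.00 to 3.79) and 2.42-fold above the 60 min interval (2.21 to 2.65), and the 60 min interval was 1.39-fold above the control (1.23 to 1.58). It was the only 1 of the 7 genes at least 2-fold higher at 15 min, among 8.36% of all genes tested, and no member was 2-fold lower, against 4.19% of all genes. At 60 min no member passed 2-fold, against 3.47% of genes higher and 1.88% lower. In kidney macrophage-gated cells Ciita was at 142, 232 and 178 CPM (757, 148 and 1481 UMIs), 1.64-fold the control at 15 min (1.37 to 1.96) and 1.26-fold at 60 min (1.15 to 1.38). The order of the conditions was thus 15 min, 60 min and control in both tissues. Whether this difference differed between tissues was not tested.

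The share of cells with a Ciita UMI was also highest at 15 min, while the thinned tumor shares at 60 min and in the control had overlapping intervals. After thinning each cell to 1000 UMIs, 4.25% of 895 tumor macrophage-gated cells held Ciita in the control (3.02 to 5.78), 11.7% of 926 at 15 min (9.67 to 13.9) and 4.46% of 1413 at 60 min (3.44 to 5.67). Without thinning the shares were 28.0, 51.0 and 34.5%, although median depth was lowest at 15 min (9399 UMIs, against 11991 and 11924). In T-gated tumor cells, which should lack Ciita, the thinned shares were 0, 0.498 and 0.330% and the unthinned shares 0.727, 2.49 and 3.26%, at median depths of 8079, 6582 and 4712 UMIs. The 0 of 268 T-gated control cells allows a share of up to 1.12%. In kidney macrophage-gated cells the thinned shares were 14.0, 25 and 17.7% and the unthinned shares 53.1, 60.8 and 57.4%. Proximal tubule-gated cells held Ciita in 0.0384, 0.0142 and 0.234% after thinning and 0.300, 0.496 and 1.01% before.

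Among the other classes, Ciita was also higher at 15 min in B-gated kidney cells, in dendritic-gated cells of both tissues and in monocyte-gated tumor cells. Kidney B-gated cells held 88.0, 154 and 106 CPM of Ciita, 1.75-fold the control at 15 min (1.33 to 2.30) and 1.2-fold at 60 min (0.944 to 1.54). No member was 2-fold higher or lower in B-gated cells at either interval, against 1.54% of genes higher and 2.40% lower at 15 min and 1.22 and 0.779% at 60 min. Kidney dendritic-gated cells held 91.4, 197 and 118 (2.16-fold at 15 min, 1.27 to 3.51, from 22 UMIs in 12 cells), and at 60 min none of the 7 genes was 2-fold higher or lower there, against 2.82 and 1.55% of all genes. Tumor dendritic-gated cells held 60.9, 189 and 106 (3.11-fold, 1.96 to 4.98, and 1.74-fold, 1.19 to 2.60), and Ciita was the 1 member that was 2-fold higher at 15 min, against 4.75% of all genes higher and 8.10% lower. At 60 min no member passed 2-fold in these cells, against 2.51% of genes higher and 3.35% lower. Tumor monocyte-gated cells held 10, 29 and 31 Ciita UMIs, ratios of 4.0 (1.90 to 9.21) and 2.66 (1.27 to 6.09). Kidney monocyte-gated cells held 10 Ciita UMIs in 24 control cells, 0 in 6 cells at 15 min and 10 in 31 cells at 60 min, and the interval of the 15 min ratio ran from 0 to 1.94. In kidney endothelial-gated cells the level was 12.0, 12.2 and 13.8 CPM, and the interval of the 15 min ratio (0.522 to 1.92) spanned 1. In these same classes H2-Aa stood close to or below control at 15 min, with ratios of 1.10 in kidney B-gated, 0.758 in kidney dendritic-gated, 0.864 in tumor dendritic-gated and 0.588 in tumor monocyte-gated cells. The other chain genes are not summarized for these classes, and they did not all follow H2-Aa.

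**Figure D3:**
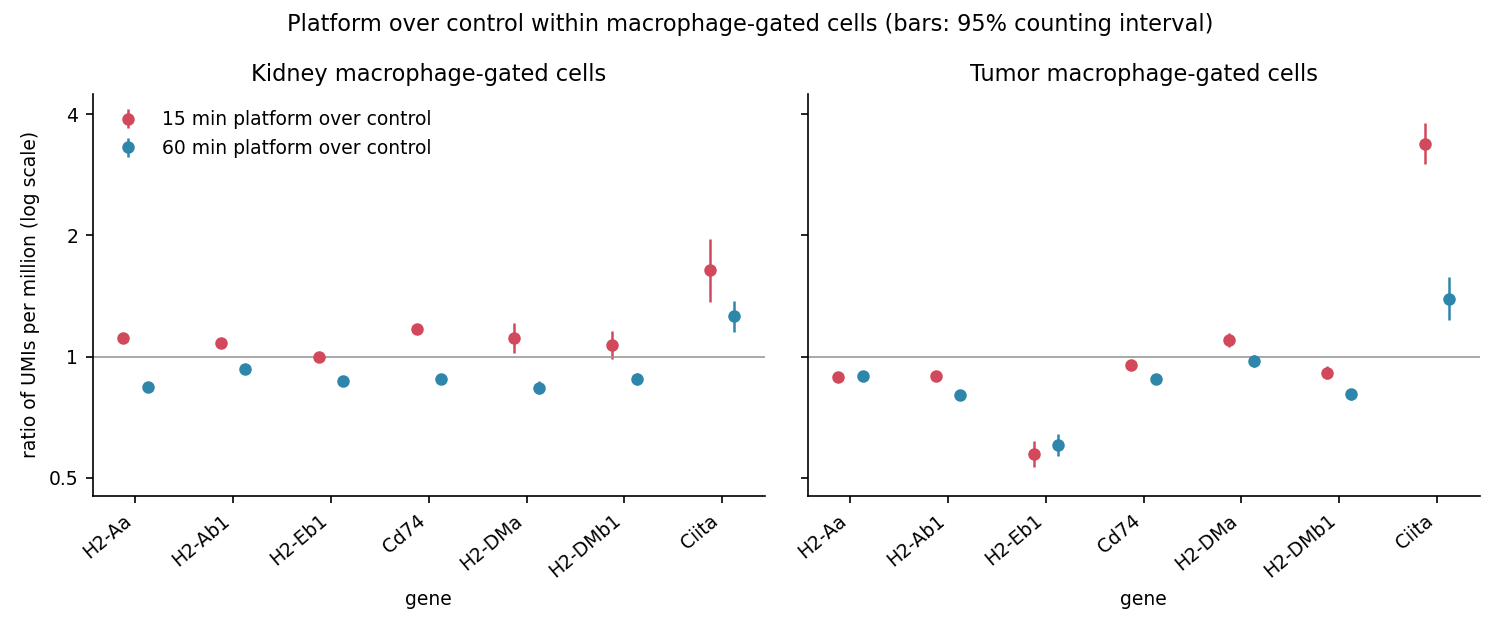
Ratio of CPM (log scale) of the 15 min (red) and 60 min (blue) platform intervals to the 60 min control for each gene in macrophage-gated cells of kidney (left) and tumor (right), with 95% counting intervals. Ciita lies above 1 at both intervals in both tissues, at 1.64 and 1.26 in kidney and 3.37 and 1.39 in the tumor, while 5 of the other 6 genes lie between 0.803 and 1.17 in both tissues and H2-Eb1 lies at 0.573 and 0.604 in the tumor.

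Of the 7 genes, H2-Eb1 differed most between the tissues in its ratio to H2-Aa. In kidney macrophage-gated cells there were 1.24, 1.11 and 1.28 H2-Eb1 UMIs for each H2-Aa UMI in the control, 15 min and 60 min libraries. Kidney dendritic-gated cells held 1.11, 1.09 and 1.13 and B-gated cells 0.872, 0.810 and 0.904. In tumor macrophage-gated cells the ratio was 0.0270 (0.0259 to 0.0282), 0.0174 (0.0163 to 0.0186) and 0.0183 (0.0175 to 0.0191), and in tumor dendritic-gated cells 0.0181, 0.0264 and 0.0203. H2-Ab1, the partner of H2-Aa, showed no such gap, at 1.16, 1.13 and 1.29 UMIs per H2-Aa UMI in kidney macrophage-gated cells and 1.5, 1.51 and 1.35 in the tumor. The tissues also differ in sex, age, transgene and the joining of their libraries, possibly in strain, and these cannot be told apart here. H2-Eb1 was not lost from the tumor as a whole, since it was found in 66.9, 52.5 and 54.8% of macrophage-gated cells, at 191, 110 and 116 CPM. Its ratio to the control was 0.573 (0.531 to 0.619) at 15 min and 0.604 (0.568 to 0.643) at 60 min, the lowest of the 7 ratios in these cells at both intervals.

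The low H2-Eb1 to H2-Aa ratio did not hold in every tumor class. Pericyte-gated tumor cells held 0, 7 and 16 H2-Eb1 UMIs in 0, 4 and 11 cells, against 2, 2 and 3 H2-Aa UMIs, a ratio of 5.33 at 60 min (1.53 to 28.6). At most 4 H2-Eb1 UMIs came from 1 pericyte-gated cell. Granulocyte-gated cells of the control held 16 H2-Eb1 UMIs in 10 of 229 cells. These counts are small, and the classes hold too few class II UMIs to be set against the macrophage-gated cells beyond this.

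**Figure D4:**
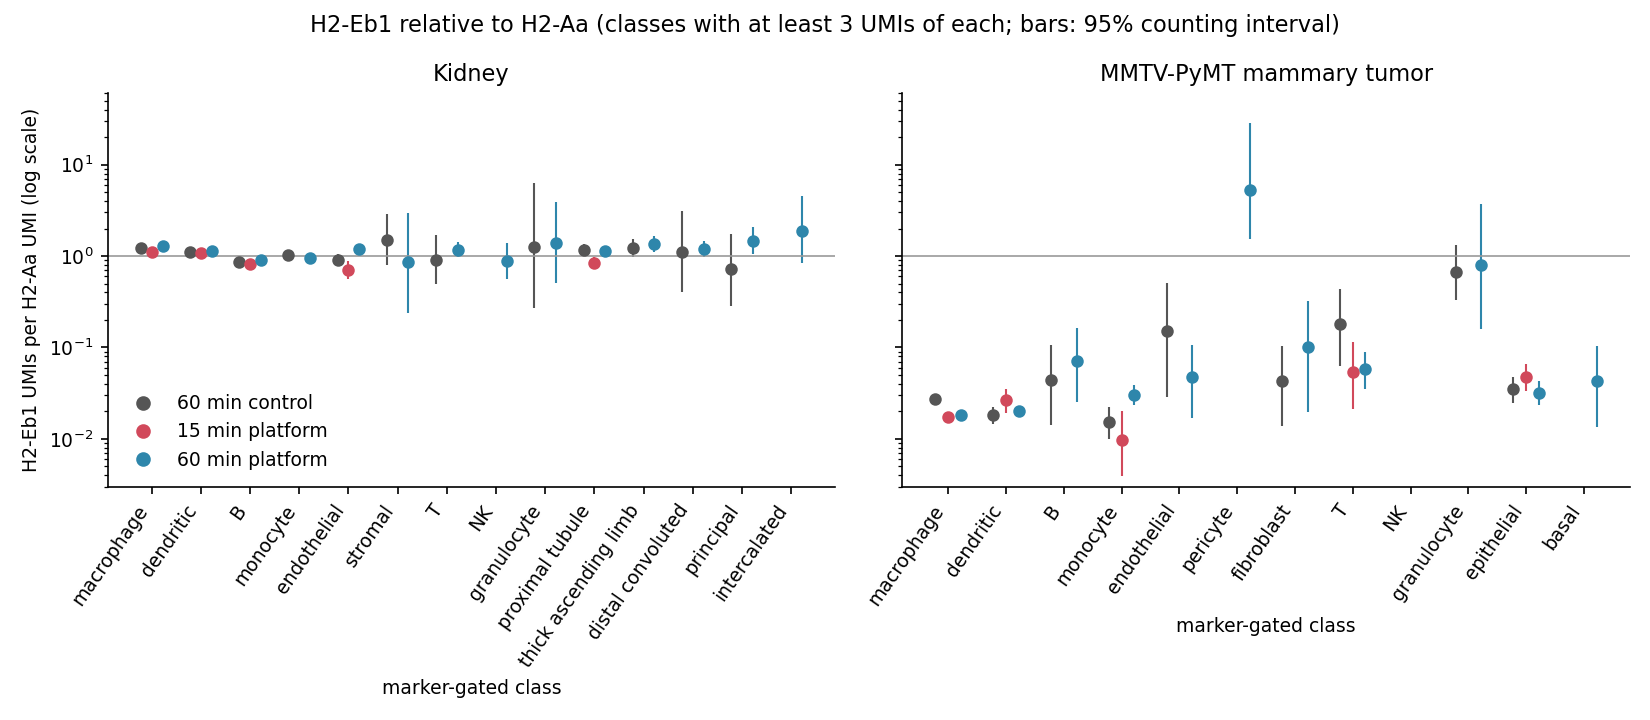
H2-Eb1 UMIs for each H2-Aa UMI (log scale) in every gated class with at least 3 UMIs of each gene, in kidney (left) and tumor (right), with 95% counting intervals. Kidney classes lie between 0.703 and 1.90, while tumor macrophage-gated cells lie at 0.0174 to 0.0270, and pericyte-gated cells of the 60 min tumor library lie at 5.33.

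The antigen-presenting classes of kidney differed in which parts of the pathway they held. Against macrophage-gated cells of the same library, dendritic-gated control cells held 80.2% of the H2-Aa level, 82.4% of H2-Ab1, 72.0% of H2-Eb1, 70.5% of Cd74 and 64.6% of Ciita. For H2-DMa and H2-DMb1 they held 107 and 91.2%. B-gated control cells held 27.4% of the macrophage H2-Aa level, 23.3% of H2-Ab1, 19.3% of H2-Eb1 and 32.5% of Cd74, but 62.2% of Ciita. The chains of H2-M parted in B-gated cells, with H2-DMa at 42.2% and H2-DMb1 at 10.7%. There were 3.42 H2-DMa UMIs for each H2-DMb1 UMI in B-gated control cells (2.78 to 4.23), 4.14 at 15 min and 3.07 at 60 min. In macrophage-gated cells the values were 0.865 (0.832 to 0.900), 0.903 and 0.825. The paralog H2-DMb2 stood at 455, 537 and 436 CPM in B-gated cells and 12.2, 14.1 and 13.3 in macrophage-gated cells, and as H2-DMb1 and H2-DMb2 share 3′ sequence, assignment between them was not tested. T-gated kidney cells also held H2-DMa apart from the rest, at 2.81, 3.60 and 3.11% of the macrophage level, while H2-Aa was at 0.186, 0.0311 and 0.758%. Natural killer-gated kidney cells at 15 and 60 min likewise stood at 4.41 and 2.80% for H2-DMa, against 0.0699 and 1.09% for H2-Aa. These values rest on 8 and 7 H2-DMa UMIs, and the control held 0. H2-DMa in T-gated cells stood at 24.6, 35.1 and 22.8 CPM, with overlapping intervals. In the tumor, dendritic-gated control cells held 122% of the macrophage H2-Aa level, 96.8% of Cd74, 146% of H2-DMa and 168% of Ciita.

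Endothelial-gated kidney cells held class II RNA above the level of proximal tubule-gated cells. H2-Aa stood at 146, 144 and 293 CPM in the control, 15 min and 60 min libraries, against 18.1, 7.93 and 119 in proximal tubule-gated cells. After thinning to 1000 UMIs, 10.9% of 548 endothelial-gated control cells held H2-Aa (8.46 to 13.9), 12.4% of 363 at 15 min and 15.1% of 2394 at 60 min, against 2.46, 0.796 and 4.6% of proximal tubule-gated cells. Unthinned shares were 31.6, 28.6 and 38.0% against 8.60, 3.72 and 19.5%, at median depths of 4092, 3749 and 3814 against 6166, 7268 and 6450 UMIs. Thinning left out 19, 7 and 47 endothelial-gated and 57, 24 and 99 proximal tubule-gated cells. The members were not held in the macrophage proportions. Endothelial-gated control cells were at 1.06% of the macrophage level for H2-Aa and 0.776% for H2-Eb1, but at 6.45% for H2-DMb1 and 8.45% for Ciita. Proximal tubule-gated control cells also stood higher for H2-DMb1 (0.811%) and Ciita (0.395%, from 10 UMIs) than for H2-Aa (0.131%) and H2-Eb1 (0.123%). The split is thus not particular to endothelial-gated cells. At 60 min the level in endothelial-gated cells was higher than in the control for H2-Eb1 (2.60-fold, 2.32 to 2.93) and Cd74 (2.02-fold, 1.90 to 2.16), 2 of 7 genes at least 2-fold higher, against 2.38% of all genes, and none was 2-fold lower, against 0.523%. At 15 min none of the 6 members with enough UMIs passed 2-fold, against 1.12% of genes higher and 2.52% lower. Proximal tubule-gated cells differed by more between the same libraries, 6.48-fold for H2-Eb1 and 5.23-fold for Cd74. Free RNA, doublets and RNA made by endothelial cells thus cannot be told apart in the 60 min difference. Per 10000 UMIs of a cell, the 7 genes took a median of 4.25 in endothelial-gated control cells and 7.67 at 60 min. The highest of these cells stood at 140 and 740. In proximal tubule-gated cells the medians were 0 and 1.79 and the highest cells 670 and 936. No doublet caller was run. In endothelial-gated cells, H2-DMb1 and Ciita, the members that stood highest relative to macrophage-gated cells, were at 65.3, 83.7 and 75.3 and at 12.0, 12.2 and 13.8 CPM. In the tumor, H2-Aa was found in 0.637, 0.784 and 1.78% of thinned endothelial-gated cells and in 1.12, 1.49 and 5.28% of thinned T-gated cells, so the endothelial share was below the T-gated one in each library and is not read as expression. At 15 min H2-Ab1 was 2-fold lower there than in the control (77 and 27 UMIs), 1 of 2 members with enough UMIs, against 1.14% of genes higher and 1.57% lower, and at 60 min none of 3 passed 2-fold, against 1.11% higher and 1.46% lower.

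Epithelial-gated tumor cells showed a similar split on a smaller scale. H2-Aa stood at 0.537, 0.306 and 0.982% of the macrophage level in the control, 15 min and 60 min libraries and Cd74 at 0.481, 0.273 and 0.816%. H2-DMb1 stood at 3.61, 4.23 and 5.49%, that is 22.2, 23.7 and 27.2 CPM. After thinning it was found in 1.98% of 3339, 2.14% of 3880 and 2.46% of 2395 epithelial-gated cells, and without thinning in 15.6, 18.4 and 19.9%. T-gated tumor cells held H2-DMb1 in 0.746, 0.498 and 0.660% after thinning and 1.82, 2.49 and 4.23% before. Its level in epithelial-gated cells was near the control at 15 min (ratio 1.07, 0.965 to 1.18), where H2-Aa was at 0.508 of control. A single epithelial-gated cell held 11.6, 15.3 and 12.0% of the class II UMIs of its class in the control, 15 min and 60 min libraries. Per 10000 UMIs of a cell, the median was 0.912, 0.649 and 0.825 and the highest value 725, 1463 and 714. The part of such cells in the H2-Aa and Cd74 levels and in the H2-Aa ratio was not tested.

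Macrophage-gated cells spread more widely in class II content in the tumor than in kidney. Per 10000 UMIs of a cell, the 7 genes took a median of 906 in kidney macrophage-gated control cells, with quartiles of 746 and 1086, 1044 at 15 min and 759 at 60 min. In the tumor the medians were 525, 493 and 457, with quartiles of 289 and 716 in the control, 247 and 722 at 15 min and 181 and 644 at 60 min. Tumor macrophage-gated cells below 100 per 10000 made up 11.9% of the control (9.88 to 14.2), 15.2% of the 15 min (12.9 to 17.6) and 17.9% of the 60 min cells (16.0 to 20.04). In kidney these cells made up 0 of 786 in the control (upper limit 0.468%), 0.833% at 15 min and 0.585% at 60 min. Monocyte-gated cells below 100 made up 57.6, 67.4 and 45.7% in the tumor, and their median was 49.3, 12.6 and 160. Kidney B-gated cells had medians of 270, 295 and 258, with quartiles of 211 and 320 in the control.

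**Figure D5:**
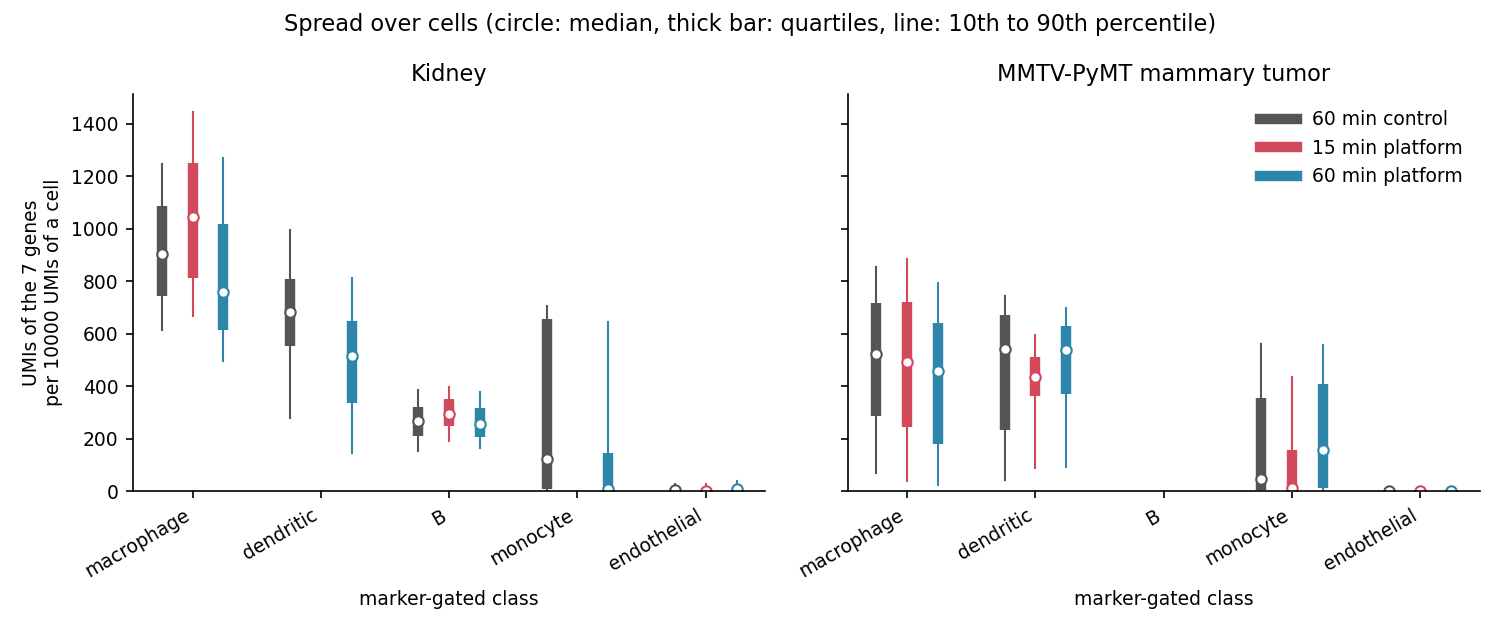
UMIs of the 7 genes per 10000 UMIs of a cell (linear axis) in kidney (left) and tumor (right), with the median (circle), quartiles (thick bar) and 10th to 90th percentiles (line) over cells, for classes of at least 20 cells in a library. In tumor macrophage-gated cells of the control the line runs from 69.9 to 854, and the medians of the 3 libraries are 525, 493 and 457, while the 10th percentiles of those of kidney lie at 616, 670 and 499.

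The gate took only cells with at least 3 macrophage markers, a list that holds the complement genes. Tumor macrophage-gated cells below 100 per 10000 thus carried such markers by selection. In the control they held 6118 CPM of C1qa against 6377 in the other cells, and 2779 against 2756 for C1qc. The 6 monocyte markers were higher in them in 6 of 6 cases in the control and 5 of 6 at 15 and at 60 min. F13a1, a coagulation factor gene of that list, stood at 405 against 31.1 in the control, 408 against 43.0 at 15 min and 333 against 28.4 at 60 min, and Ly6c2 at 19.0 against 7.26, 67.7 against 1.85 and 58.8 against 2.75. Ms4a4c differed less, at 121 against 90.4, 151 against 99.9 and 99.6 against 73.0. Ccr2, the receptor that guides monocytes out of the marrow, stood at 73.5 against 69.0, 133 against 144 and 48.8 against 86.4, so it was the exception at 15 and 60 min. Ciita stood at 3.79 against 40.8, 16.6 against 143 and 5.31 against 60.3. It was lower in the cells below the limit, which was set on a sum that includes it. The control cells below the limit held only 5 Ciita UMIs. The class I gene B2m was at 1784 against 1676 in the control. Median depth was 12549 against 11960 UMIs in the control. The cells were split on class II itself, C1qa, C1qc and the monocyte markers named were picked from the class markers after their values were seen, and these values are a description.

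Of the genes that work beside the 7, a list of 21 was followed, and Ifi30 of that list was not measured because its symbol could not be matched. In kidney macrophage-gated cells none of the 17 listed genes with at least 50 UMIs at 15 min, and none of the 19 at 60 min, was 2-fold higher or lower, against the 3.1 and 6.00% of all genes at 15 min and the 2.35 and 0.375% at 60 min given above. In tumor macrophage-gated cells, 1 of 19 listed genes at 15 min was 2-fold higher, March1, against 8.36% of all genes, and 2 were 2-fold lower, Cd40 and Cd80, against 4.19%. At 60 min March1 was the 1 of 19 that was 2-fold higher, against 3.47% of all genes, and none was lower, against 1.88%. March1 encodes the ubiquitin ligase that removes class II molecules from the cell surface. It stood highest at 15 min, as Ciita did, at 56.7, 107 and 64.8 CPM in kidney macrophage-gated cells (1.88-fold at 15 min, 1.43 to 2.46) and 15.4, 58.6 and 34.1 in the tumor (3.80-fold, 3.18 to 4.55, and 2.21-fold at 60 min, 1.85 to 2.64). Kidney B-gated cells held 121, 237 and 121 CPM of March1 (1.97-fold at 15 min, 1.57 to 2.47), and tumor dendritic-gated cells 26.1, 103 and 34.5 (3.95-fold, 2.0 to 8.05). Costimulatory genes stood below control in tumor macrophage-gated cells at 15 min. Cd40 was at 48.8, 15.1 and 42.0 CPM (0.309 of control at 15 min, 0.255 to 0.374), Cd80 at 11.1, 4.41 and 8.37 (0.396, 0.270 to 0.572) and Cd86 at 410, 316 and 323 (0.770, 0.734 to 0.808). In kidney macrophage-gated cells Cd86 was at 421, 435 and 488, and the interval for Cd40 at 15 min (0.432 to 1.21) spanned 1.

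The DNA-binding factors through which Ciita acts, Rfx5, Rfxank and Rfxap, were at 3.65, 11.2 and 27.8 CPM in the tumor control, with 15 min ratios of 1.63 (1.06 to 2.53), 1.22 (0.940 to 1.58) and 1.10 (0.934 to 1.30). In kidney the 15 min intervals of all 3 factors spanned 1. The cathepsin gene Ctss, which trims the invariant chain, was at 2149, 2905 and 2058 CPM in kidney and 3982, 4282 and 3787 in the tumor. Ctsl, a cathepsin of many cells, was at 128, 108 and 157 in kidney and 258, 247 and 316 in the tumor. Lgmn, an endosomal protease gene, was at 470, 563 and 449 and at 1606, 1756 and 1864. Of class I presentation, B2m (1.10 and 1.06 in kidney and tumor at 15 min), H2-K1 (1.10 and 0.825) and H2-D1 (1.05 and 0.925) stayed near control, and the peptide transporter gene Tap1 was higher at 15 min, 1.5-fold in kidney (1.23 to 1.82) and 1.56-fold in the tumor (1.38 to 1.78). Tapbp, which holds class I at the transporter, stood at 1.27 and 1.19, and Nlrc5, the class I counterpart of Ciita, at 1.23 (0.680 to 2.09) and 1.57 (1.04 to 2.40).

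The accessory chains H2-Oa and H2-Ob form H2-O, which restrains H2-M. In kidney control H2-Ob stood at 404 CPM in B-gated cells, 158 in dendritic-gated cells and 29.9 in macrophage-gated cells, and H2-Oa at 159, 276 and 51.2. In the tumor H2-Oa was at 165 in dendritic-gated and 7.67 in macrophage-gated control cells. H2-Eb2, a paralog of H2-Eb1, was at 45.4, 5.01 and 1.12 in kidney B-, dendritic- and macrophage-gated cells.

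The genes whose pattern over classes and libraries lay nearest to that of the summed H2-Aa, H2-Ab1 and H2-Eb1 were found by Pearson correlation of log2(CPM + 1). In kidney, over 36 class sums and 11736 genes, they were Ly86 (r = 0.933), Cd83 (0.932), Wfdc17 (0.924), Cd180 (0.918), Pld4 (0.907), Cybb (0.898), Unc93b1 (0.895), Rnase6 (0.891), Cd86 (0.863) and March1 (0.862). Among the members outside the sum, Cd74 had r = 0.989, H2-DMb1 0.913, H2-DMa 0.881 and Ciita 0.881. In the tumor, over 30 sums and 10736 genes, they were H2-DMb2 (0.966), Clec10a (0.964), Tnip3 (0.958), Havcr2 (0.952), Ly86 (0.948), Pld4 (0.947), Cd86 (0.943), Slamf9 (0.941), Dcstamp (0.933) and Cd83 (0.933). Ly86, Pld4, Cd86 and Cd83 were named in both tissues. The sums of a tissue share 3 libraries and their depth, and these values describe likeness only.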

How the data were processed

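Per the labels and the authors' methods, sorted live cells were encapsulated with 10x Genomics 3′ version 3 chemistry, sequenced, aligned to mm10 and counted with Cell Ranger 3.1.0, and the libraries of each tissue were joined after reads were subsampled to equal depth, so the tissues were aggregated separately and their levels were not compared by fold. The deposited matrices hold the UMI count of every gene in every cell, as whole numbers, and the authors also deposited barcode, gene and library tables. No per-sample column was left unused. A 3′ count gives no level per transcript length, so levels were compared between classes and conditions and not between genes, and joining at equal read depth leaves UMI totals and detection free to differ.

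Cells with at least 200 genes, at most 3000 genes and 50% mitochondrial UMIs (kidney) or 4000 genes and 25% (tumor) were kept, 24212 of 34034 and 17562 of 24527. Doublets were removed only through the upper gene limit, and no doublet caller was run. Classes came from marker lists without class II genes, with at least 3 markers detected and a lead of 0.25 in the share of markers over the next lineage. Dendritic and monocyte markers had no part in that lead. These gates took only cells left without a class that held at most 2 markers of any other list. A dendritic call needed 3 markers of its list, or 2 with Flt3 or Zbtb46 detected, and a monocyte call 3. The limits of the gates were set after marker counts were seen, and 10.1% of kidney and 6.63% of tumor cells lay near one. The members and lists were chosen with earlier results of these data known. Counts were summed per class and library, and each of the 6 libraries is the only 1 of its group, so no test was run. Exact Poisson intervals were given for levels, exact conditional intervals for ratios and exact binomial (Clopper-Pearson) intervals for shares, all at 95%. Genes were called past 2-fold where the 2 sums held at least 50 UMIs, for all genes alike. Shares of cells with a UMI were computed after thinning cells to 1000 UMIs (seed 0). Likeness used classes of at least 20 cells and genes reaching 20 CPM. The named genes were the 7 members, the fixed pathway list (accessory chains, antigen processing, regulators, costimulation and class I presentation) and 10 genes by likeness in each tissue. Median depth of kept cells was 4583 to 6612 UMIs in kidney and 8211 to 9476 in the tumor. Alternatives were Leiden clusters in place of gates, stricter gates, no upper limits, a denominator without mitochondrial UMIs, means over cells, other UMI minimums, other thinning and leaving out shared barcodes. Calls and intervals were tested on simulated Poisson counts with known folds. The simulation held no variation between libraries or cells, so it cannot show how calls and intervals behave under such variation. RefSeq promoter windows held no entry for H2-Ab1, Cd74 and Ciita. Analysis used Python 3.11.15, numpy 2.4.6, scipy 1.17.1, pandas 2.3.3, scikit-learn 1.9.0, igraph 0.11.9, leidenalg 0.10.2 and matplotlib 3.10.9, with the GENCODE vM21 annotation.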

Additional observations from a re-analysis of the deposited data

Results flagged for a closer look

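For 3 of the 7 genes, macrophage-gated cells of the 15 min library lay above the control in kidney and below it in the tumor, with both counting intervals leaving out equality. The share of all genes that meet this rule was not computed. The ratio was 1.17 in kidney and 0.955 in the tumor for Cd74, 1.11 and 0.889 for H2-Aa, and 1.08 and 0.896 for H2-Ab1. Over all genes tested the median ratio in these cells was 1.06 in kidney and 1.18 in the tumor. Each tissue has 1 library per condition, and the difference between tissues was not tested.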

How the results depend on the processing

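No paired analysis was possible because the 3 libraries of a tissue, which share a replicate number and a source mouse, give only 1 pair for each comparison and so no spread between pairs. Main values were recomputed 60 times, each time 1 value under 1 alternative. In 41 of these the new value lay outside the counting interval of the main one and in 19 it did not. For the other values it lay outside in 102 and inside in 189. No ratio whose counting interval left out equality changed direction. The summed class II level of macrophage-gated cells, as log2 of 15 min over control in kidney (0.15), became 0.054 with Leiden clusters, 0.22 without mitochondrial UMIs, 0.17 as a mean over cells, 0.057 without upper limits and 0.19 with stricter gates. At 60 min (-0.18) it became -0.26, -0.16 and -0.15 under the same first 3 settings and -0.17 with stricter gates. In the tumor at 15 min (-0.099) it became -0.13 with Leiden clusters, -0.056 as a mean over cells and -0.13 without upper limits, and at 60 min (-0.21) -0.25, -0.22 and -0.19. Per library, as log2 against control, the 15 min kidney value (-3.33) became -3.17 without mitochondrial UMIs and -3.05 without upper limits, and the 60 min value (0.0017) became 0.028, -0.0087 and, without shared barcodes, a setting chosen after seeing the data, 0.0075. The tumor values (-0.58 and 0.23) became -0.59 and 0.22 without mitochondrial UMIs, and the latter 0.30 without upper limits. Endothelial- over proximal tubule-gated cells in the kidney control (log2 2.94) became 3.11 with Leiden clusters, 2.81 without mitochondrial UMIs and 2.16 without upper limits. Macrophage- over epithelial-gated cells in the tumor control (7.49) became 8.61, 7.42 and 7.03, and 7.82 with stricter gates. The macrophage share of class II UMIs in the kidney control (77.3%) became 79.6% with Leiden clusters, 67.3% without upper limits, 75.3% with stricter gates and 77.5% without shared barcodes. In the tumor control (83.0%) it became 80.0, 79.2 and 81.8%. The share of endothelial-gated cells with H2-Aa (10.9%) was 31.6% without thinning and 21.2% at 2000 UMIs. With a minimum of 200 UMIs, 4.15% in place of 8.36% of genes were 2-fold higher in tumor macrophage-gated cells at 15 min, and 20.8% in place of 25.5% were lower in the 15 min kidney library. For Ciita in macrophage-gated cells the log2 ratio ranged from 0.56 to 0.79 in kidney and 1.68 to 1.76 in the tumor at 15 min. Leiden clustering gave no dendritic cluster, most dendritic-gated cells lying in monocyte clusters, and so no dendritic value. With 1 library a group, depth sets only the counting error, and variation between mice or preparations is not measured. The cause of these shifts was not tested.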
